A study of Homo sapiens with 6 samples.

Results

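The 9 genes described here encode secreted glycoproteins of the extracellular matrix: TGFBI, POSTN, FN1, TNC, THBS1, THBS2, SPARC, FBN1 and FBN2. They were chosen by symbol as a matricellular and microfibril set, and all 9 were among the 56638 gene rows of each count table. Total RNA was sequenced in 6 libraries of cells that carry the label SW480, an established line from a human colorectal tumour. The 3 control libraries came from untreated cells, and the 3 TGFB1 libraries from cells given TGF-β1 at 10 ng/ml, stated to have been given over 4 times, a cytokine that signals through receptor kinases to SMAD transcription factors. All came from passages 16 to 19 of the line, and no source used here gives the hours of exposure.

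Matricellular proteins sit in the matrix without being its main scaffold and modulate how cells attach to it. TGFBI and its relative periostin (POSTN) are built of fasciclin domains and bind integrins and collagen. Fibronectin (FN1) is assembled by cells into fibrils through integrins, and tenascin C (TNC), the thrombospondins (THBS1, THBS2) and SPARC are known to adjust adhesion to such fibrils. Fibrillins 1 and 2 (FBN1, FBN2) are the large backbone proteins of microfibrils, the beaded filaments that carry elastin and hold latent TGF-β complexes through latent TGF-β binding proteins.

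The promoters of the genes that carry the results are shown here because the data bear on which of them moved together. FN1, TNC and TGFBI rose, FBN1 and FBN2 moved in opposite directions, and THBS1 was not past the test. Sequences are from RefSeq on GRCh38.p14, 5′ to 3′ on the gene's strand. Each is the longest stretch, within the 250 bases before the RefSeq start, free of exons of any GENCODE 29 transcript. That of FN1 begins 184 bases before its start, since an exon on the opposite strand lies farther upstream in the window. Capitals mark whole matches to GGGCGG (a GC box), CAGAC (the SMAD-binding core), GGAATG (the TEAD core), TGANTCA (AP-1) and TGACGTCA (the cAMP response element), read on both strands, and to TATAA, read on the gene's strand.
TGFBI, chr5:136028738-136028894, plus strand: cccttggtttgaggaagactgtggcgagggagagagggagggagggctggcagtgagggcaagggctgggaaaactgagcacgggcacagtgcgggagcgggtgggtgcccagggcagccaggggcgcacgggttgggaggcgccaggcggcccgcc
FN1, chr2:215436173-215436252, minus strand: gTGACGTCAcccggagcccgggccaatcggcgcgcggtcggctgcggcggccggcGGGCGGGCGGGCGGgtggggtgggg
TNC, chr9:115118258-115118407, minus strand: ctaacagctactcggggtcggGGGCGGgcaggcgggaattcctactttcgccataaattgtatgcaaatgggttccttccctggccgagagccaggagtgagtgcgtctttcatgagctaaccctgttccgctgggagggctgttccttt
THBS1, chr15:39580829-39581078, plus strand: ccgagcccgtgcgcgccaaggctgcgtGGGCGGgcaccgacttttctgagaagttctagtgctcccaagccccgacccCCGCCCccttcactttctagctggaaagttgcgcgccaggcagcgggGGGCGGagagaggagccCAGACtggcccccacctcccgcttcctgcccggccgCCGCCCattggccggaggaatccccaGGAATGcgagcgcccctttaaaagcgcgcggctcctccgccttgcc
FBN1, chr15:48644971-48645220, minus strand: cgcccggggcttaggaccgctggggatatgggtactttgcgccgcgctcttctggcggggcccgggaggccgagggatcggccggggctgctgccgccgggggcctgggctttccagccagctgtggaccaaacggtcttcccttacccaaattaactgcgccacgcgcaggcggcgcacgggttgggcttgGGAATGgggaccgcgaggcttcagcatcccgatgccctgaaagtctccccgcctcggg
FBN2, chr5:128538246-128538495, minus strand: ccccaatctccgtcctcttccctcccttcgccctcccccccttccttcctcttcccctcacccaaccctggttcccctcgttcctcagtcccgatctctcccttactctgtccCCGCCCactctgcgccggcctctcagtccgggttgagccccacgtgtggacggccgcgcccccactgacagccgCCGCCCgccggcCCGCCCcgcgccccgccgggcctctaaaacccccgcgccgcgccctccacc

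Across the full 250 bases, GGGCGG was found before 5 of the 9 genes and before 42.5% of the 34943 promoters of the RefSeq table. TGFBI had 3 such matches, 98, 66 and 16 bases before its start, FN1 had 6, several of them overlapping, THBS1 had 4, FBN2 had 3 and TNC had 1. FBN1 had none. The matches lay before genes that rose (TGFBI, FN1 and TNC), before FBN2, which fell, and before THBS1. A link to the direction of change was not tested. CAGAC was found before 4 of the 9 (TNC, THBS1, THBS2 and POSTN) and before 38.0% of all promoters, and GGAATG before 4 (THBS1, THBS2, SPARC and FBN1) against 11.9%. TATAA starting 25 to 35 bases before the start, where a TATA box lies, was found for FN1 (28 bases), TNC (27), THBS2 (29) and POSTN (29), and for 3.57% of all promoters. TGANTCA occurred before POSTN alone (6.59% of all promoters), TGACGTCA before FN1 alone, 183 bases before its start (1.63%), and CACCTG (17.5%), an E-box, before none of the 9. The 250 bases were richest in G and C before FN1 (76.4%), TGFBI (72.8%) and FBN2 (72.8%) and poorest before POSTN (36.4%), with a median of 58.0% over all promoters. The full windows of TGFBI, FN1, TNC, THBS2, POSTN and SPARC overlap GENCODE 29 exons, that of SPARC over all 250 bases. Some counted matches lie in such exons. Among them are the GGAATG match of SPARC and the GGGCGG matches of TGFBI 66 and 16 bases before its start. The TATAA matches 25 to 35 bases before the start also lie in exons. A match describes the letters of the window only.

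Total counts in genes ran from 13012898 to 16005222 per library. The labels do not state whether each library had a culture of its own. The p-values therefore rest on the spread between these libraries only, which may be technical. Among genes known to respond to TGF-β, PMEPA1, SMAD7 and SKIL rose, and TGIF1 was not past the test. Of 6 epithelial markers, KRT8 stood at 1711 ± 1.33 CPM (counts scaled to a common library size after TMM normalisation) and KRT18 at 183 ± 7.36 CPM in control libraries, but KRT19 had 1 count in all 3 and ESRP1 none. Of the 4 epithelial markers tested, 3 were called lower with TGF-β1, beside 23.9% of all genes tested. KRT18 fell to 125 ± 2.59 CPM and EPCAM from 6.94 ± 0.543 to 4.06 ± 1.004 CPM. CDH1 stood at 1.09 ± 0.071 CPM in control and 0.271 ± 0.176 CPM in TGFB1 libraries. It passed the filter on low counts through the control libraries alone, so its direction is tied to the filter. KRT19, which the filter left out, went from 1 control count to 6 TGFB1 counts. KRT8 was not past the test, and the summed epithelial level was 1897 to 1910.5 CPM in control and 1781 to 1823 CPM in TGFB1 libraries. None of 8 intestinal markers reached 1 CPM in control libraries, and CDX2 and GPA33 had 0 counts in all libraries, so the labelled colorectal origin is not borne out by these markers. LGR5, the only intestinal marker tested, had 13 control and 46 TGFB1 counts. It passed the filter on low counts through the TGFB1 libraries alone, so its direction is tied to the filter. Of the markers left out, MUC2 went from 18 to 5 counts, CDH17 from 7 to 0 and VIL1 from 3 to 0. CDX1 went from 0 to 6 counts, and KRT20 had 4 in each group. Of 10 fibroblast markers, 5 were tested and all 5 were called higher, beside 23.4% of all genes tested. FAP had 1 control and 51 TGFB1 counts, and THY1 had 23 and 52. Both passed the filter on low counts only through the TGFB1 group, so their directions are tied to the filter. PDGFRB (344 control and 660 TGFB1 counts) and DCN (145 and 337) had enough counts in both groups to pass that filter. For both genes every TGFB1 library lay above every control library. Of the fibroblast markers left out, LUM went from 9 to 3 counts, and ACTA2 had 23 and 25. The summed fibroblast level was 91.7 to 95.4 CPM in control and 121 to 137 CPM in TGFB1 libraries. Most of it was COL1A1, at 81.3 ± 2.64 CPM in control and 105 ± 5.40 CPM in TGFB1 libraries. COL1A2, COL3A1 and PDGFRA, defining genes of fibroblasts, had 0 control counts and 2, 3 and 1 TGFB1 counts. The part of such cells in the results was not tested. Endothelial and immune markers summed to at most 3.27 and 3.06 CPM in any library, KDR, PECAM1 and PTPRC had 0 control counts, and VWF fell from 115 to 23 counts. In bulk RNA, more cells of a type and more RNA per cell cannot be told apart.

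The set separated into genes that rose, a fibrillin pair that parted, an abundant gene that was not past the test and genes near the floor of counting. Over the 14897 genes tested, edgeR called 47.3% (quasi-likelihood, Benjamini-Hochberg threshold 0.05), of which those higher in TGFB1 libraries made up 23.4% and those lower 23.9% of the genes tested. The filter on low counts kept 6 of the 9 genes. Each of the 6 had at least 83 counts in every library, so none passed through the TGFB1 group alone. Among them 4 rose (TGFBI, FN1, TNC and FBN1), 1 fell (FBN2) and 1 was not past the test (THBS1). The groups did not overlap for the 5 called genes, as was so for 54.2% of all genes tested. The 9 genes held between 0.0778% and 0.0893% of a control library's gene counts and between 0.156% and 0.170% of a TGFB1 library's, and most of the added counts were those of TGFBI.

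**Figure D1:**
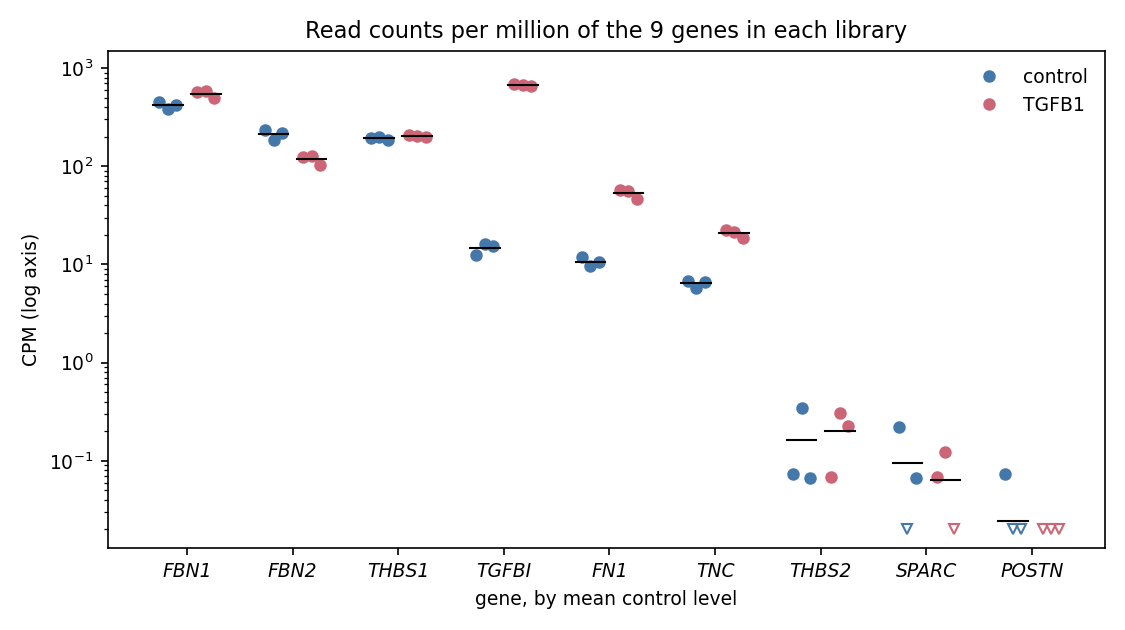
Level of each of the 9 genes in CPM on a log axis, with 1 point per library (3 control, 3 TGFB1), lines at the group means and open triangles at the base for libraries with 0 counts. TGFBI, FN1, TNC and FBN1 lie higher in all TGFB1 libraries, FBN2 lies lower, and the groups overlap for THBS1, THBS2, SPARC and POSTN.

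TGFBI, a fasciclin-domain protein whose name means TGF-β-induced, stood at 12.3, 16.2 and 15.4 CPM in control libraries 1, 2 and 3. In TGFB1 libraries 1, 2 and 3 it stood at 695, 672 and 663 CPM. The groups were far apart, and the TGFB1 libraries lay close to each other, with a spread of 2.42% of their mean against 13.98% in the control libraries. The log2 fold change was 5.53 ± 0.070 (SE), a 46.1-fold rise (edgeR adjusted p = 1.40e-29). Among all genes tested it was the 21st largest rise, and its rank by CPM moved from 8610 in control to 140 in TGFB1 libraries.

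Periostin, the nearest relative of TGFBI among the 9, was at the floor of counting. POSTN had 1 count in control library 1 and 0 counts in every other library. With 0 counts over the 3 TGFB1 libraries, its level there may reach 0.0677 CPM, counting error only. The fasciclin-domain pair thus consisted of a gene among the most counted and a gene at the floor in cells given TGF-β1.

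Fibronectin, the fibril-forming ligand of integrin α5β1, was low in control cells. FN1 stood at 12.0, 9.58 and 10.6 CPM in control libraries 1, 2 and 3. In TGFB1 libraries it stood at 57.8, 55.7 and 46.7 CPM. All TGFB1 libraries lay above all control libraries, with TGFB1 library 3 the lowest of its group. The log2 fold change was 2.32 ± 0.094, a 5.01-fold rise (edgeR adjusted p = 6.51e-18). The counts are per gene, so spliced forms of fibronectin cannot be told apart.

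Tenascin C, an adhesion-modulating hexamer that binds fibronectin, moved in the same direction from a lower level. TNC stood at 6.83, 5.76 and 6.68 CPM in control libraries 1, 2 and 3. In TGFB1 libraries it stood at 22.5, 21.3 and 18.7 CPM. The groups did not overlap, and the order of libraries within each group resembled that of FN1, with control library 2 and TGFB1 library 3 lowest. The log2 fold change was 1.70 ± 0.112, a 3.25-fold rise (edgeR adjusted p = 2.85e-13). TNC shares 129 exon bases with DEC1 on the opposite strand in GENCODE 29, and DEC1 itself had 0 to 7 counts per library.

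Thrombospondin 1, which can release TGF-β from its latent complex, was abundant in both groups. THBS1 stood at 193, 201 and 186 CPM in control libraries. In TGFB1 libraries it stood at 208, 202 and 198 CPM. The ranges overlapped, since control library 2 lay above TGFB1 library 3. The fold was 1.05 with a 95% interval of 0.979 to 1.12 (edgeR adjusted p = 0.262), which does not show that the groups are alike. THBS1 passed with scaling by library size alone (log2 fold change 0.12, edgeR adjusted p = 0.0315) and with a transcript length trend removed (0.13, edgeR adjusted p = 0.0106). It shares 448 exon bases with FSIP1 on the opposite strand, which had 13 to 33 counts per library.

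Thrombospondin 2 and SPARC, a collagen-binding glycoprotein, were near the floor in both groups. THBS2 had 1, 5 and 1 counts in control libraries and 1, 5 and 3 in TGFB1 libraries, a ratio of 1.247 after scaling with an exact 95% counting interval of 0.413 to 3.94. SPARC had 3, 0 and 1 counts in control and 1, 2 and 0 in TGFB1 libraries, a ratio of 0.728 with an interval of 0.107 to 4.30. Both intervals are wide, so a difference of several fold would not be detectable at this depth. The log2 ratio of THBS2 to THBS1 counts, with 0.5 added to each, was -10.2 ± 1.03 in control and -9.93 ± 0.941 in TGFB1 libraries (exact permutation p = 1, two-sided).

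**Figure D2:**
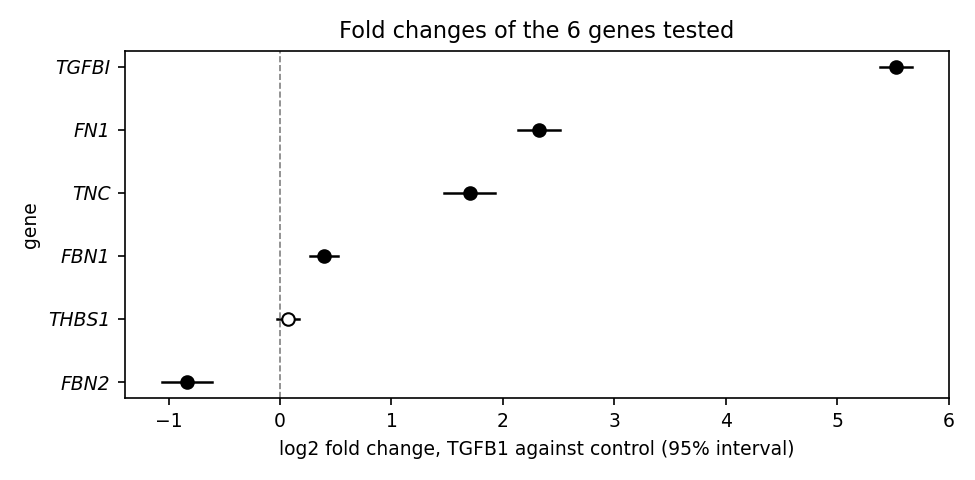
Log2 fold change of the 6 tested genes, TGFB1 against control libraries, with 95% intervals from edgeR's fit (n = 3 libraries a group). Filled points passed the test and the open point, THBS1, did not. TGFBI lies at 5.53, FBN1 at 0.39 and FBN2, the gene left of 0, at -0.83.

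The fibrillins parted: FBN1 rose and FBN2 fell. FBN1, the fibrillin of adult microfibrils, stood at 449, 382 and 425 CPM in control libraries. In TGFB1 libraries it stood at 571, 579 and 500.1 CPM. Every TGFB1 library lay above every control library, and the log2 fold change was 0.39 ± 0.059, a 1.31-fold rise (edgeR adjusted p = 6.08e-06). FBN2, the fibrillin best known from fetal tissue, stood at 233, 184 and 219 CPM in control and at 126, 128 and 103 CPM in TGFB1 libraries. Every TGFB1 library lay below every control library, and FBN2 fell by 0.83 ± 0.10 on the log2 scale, 1.78-fold (edgeR adjusted p = 5.27e-05). FBN2 shares 56 exon bases with SLC27A6 on the opposite strand, which had 11 to 23 counts per library.

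Because both fibrillins were measured in the same libraries, their ratio removes what a library does to both alike. An effect that differs between the 2 genes stays in the ratio. Within their groups, control library 2 (-1.06) and TGFB1 library 3 (-2.28) had the lowest log2 ratio of FBN2 to FBN1. FBN2 made up 34.2% (exact 95% binomial interval 33.2 to 35.2), 32.5% (31.5 to 33.5) and 34.1% (33.1 to 35.01) of the FBN1 and FBN2 counts in control libraries. In TGFB1 libraries it made up 18.04% (17.3 to 18.8), 18.2% (17.5 to 18.9) and 17.1% (16.2 to 17.9). The intervals overlapped within each group and were far apart between groups. The log2 ratio of FBN2 to FBN1 was -0.98 ± 0.063 in control and -2.21 ± 0.060 in TGFB1 libraries, 2.34-fold lower (exact permutation p = 0.10, two-sided, the smallest that 3 against 3 libraries can give). The summed level of both genes was 566 to 682 CPM in control and 603 to 707 CPM in TGFB1 libraries, which overlap, so the make-up of the fibrillin counts differed more than their amount.

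**Figure D3:**
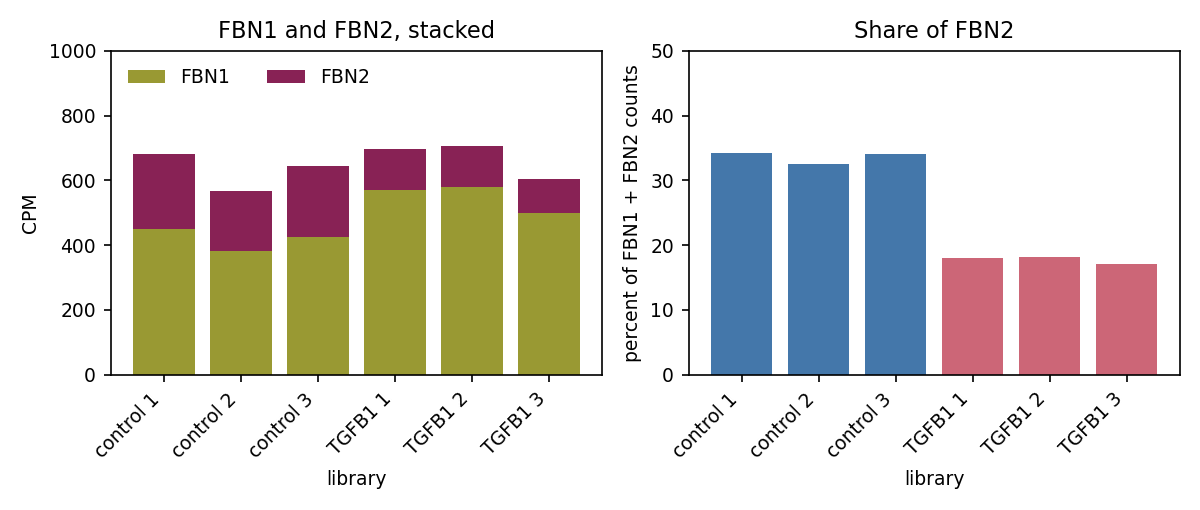
Left, FBN1 and FBN2 stacked in CPM for each of the 6 libraries; right, FBN2 as a percent of the FBN1 and FBN2 counts of the library. The share lies between 32.5% and 34.2% in control and between 17.1% and 18.2% in TGFB1 libraries, while the stacked height overlaps between groups.

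Within groups the longest of these transcripts deviated together. FBN1 varied between libraries by 8.0% of its mean in control and 7.88% in TGFB1 libraries, where counting alone gives 1.29% and 1.11%, and FBN2 varied by 12.0% and 11.8%. In control library 2, FBN1, FBN2, FN1 and TNC deviated from their group means by -0.13, -0.20, -0.15 and -0.15 on the log2 scale. In TGFB1 library 3 these 4 genes deviated by -0.13, -0.20, -0.19 and -0.15. Those libraries were also low across 1682 long genes (longest GENCODE 29 transcript over 7 kb), with median deviations of -0.065 and -0.074, and each had the smallest share of its group of reads assigned to no feature, 5.44% and 5.47%. THBS1, also over 7 kb, did not follow in control library 2, with a deviation of 0.054. Between groups, the long genes had a median log2 fold change of -0.08, and 35.9% of them fell. With a lowess trend on transcript length removed from each library, an alternative chosen after seeing the data, the log2 fold change of FBN1 was 0.50 (edgeR adjusted p = 5.14e-15) and that of FBN2 -0.73 (edgeR adjusted p = 1.60e-14), so both kept their directions.

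**Figure D4:**
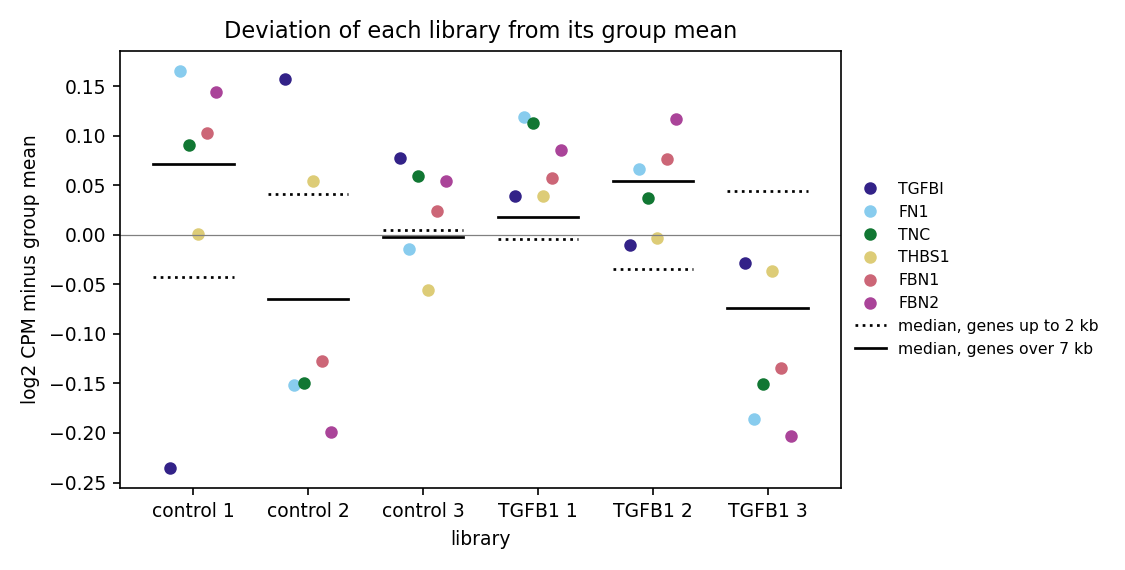
Deviation of each library from the mean of its own group (log2 CPM) for the 6 tested genes, as points, beside the median over genes with transcripts up to 2 kb (dotted) and over 7 kb (solid). FBN1, FBN2, FN1 and TNC lie below 0 in control 2 and TGFB1 3, where the long genes also lie below 0, while TGFBI lies highest in control 2.

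Levels of different genes were compared per kilobase of the longest GENCODE 29 transcript. In control libraries the order was FBN1 (35.6 ± 2.85 CPM per kilobase), THBS1 (24.9 ± 0.946), FBN2 (19.1 ± 2.29), TGFBI (3.14 ± 0.439), FN1 (1.17 ± 0.131) and TNC (0.840 ± 0.076). No neighbours in this order overlapped over the 3 libraries, though FN1 and TNC came close in control libraries, at 1.04 and 0.894 CPM per kilobase in their nearest libraries. In TGFB1 libraries TGFBI stood first at 145 ± 3.52 CPM per kilobase, ahead of FBN1 (46.8 ± 3.69), THBS1 (26.1 ± 0.693), FBN2 (10.7 ± 1.26), FN1 (5.82 ± 0.640) and TNC (2.73 ± 0.253). Apart from the move of TGFBI from the fourth place to the first, the order was the same. The median coding transcript, which for TGFBI is far shorter, gave the same order in both groups but other levels. In TGFB1 libraries TGFBI then stood at 613 CPM per kilobase, FBN1 at 69.3, THBS1 at 48.5, FBN2 at 15.7, FN1 at 6.76 and TNC at 3.78. The size of the gap between TGFBI and the others therefore depends on the transcript length chosen.

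Other matricellular glycoproteins held genes that rose and genes that fell. Of 29 listed genes 17 were tested, and 10 rose, 4 fell and 3 were not past the test, with a median log2 fold change of 0.67 against 0.00033 over all tested genes. The share called was 82.35%, beside 47.3% of all genes tested (23.4% higher, 23.9% lower). SPOCK1 (testican 1, a proteoglycan related to SPARC) rose from 2.57 ± 0.226 to 47.2 ± 2.04 CPM, 18.4-fold (edgeR adjusted p = 1.18e-22). ECM1, a glycoprotein that binds other matrix proteins, rose 2.95-fold to 67.4 ± 5.15 CPM. Vitronectin (VTN), an adhesive ligand that shares integrin receptors with fibronectin, fell from 10.6 ± 0.407 to 0.424 ± 0.121 CPM. VTN passed the filter on low counts through the control libraries alone. The basement membrane linker NID2 fell 1.84-fold. Among close relatives of the 9, THBS3 was not past the test (33.5 ± 1.33 and 36.3 ± 1.69 CPM, edgeR adjusted p = 0.184). COMP (edgeR adjusted p = 0.0665) and TNXB (edgeR adjusted p = 0.0900) were not past it either, though all their TGFB1 libraries lay above control. FSTL1 and SMOC1 rose 1.39-fold and 1.26-fold, and SPOCK2 fell 1.44-fold. THBS4, TNR, TNN, SPARCL1, SMOC2, SPOCK3 and FBN3 were left out by the filter on low counts.

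Partners of fibrillin in microfibrils and elastic fibres moved in both directions. Of 24 listed genes 18 were tested, and 8 rose, 3 fell and 7 were not past the test, with a median of 0.25. The share called was 61.1%, beside 47.3% of all genes tested, so the count alone says little of this list. ADAMTS10, a secreted metalloprotease that binds fibrillin 1, rose from 2.75 ± 1.04 to 26.8 ± 2.14 CPM, 9.67-fold (edgeR adjusted p = 4.87e-16). MFAP2, a small glycoprotein of microfibrils, rose 3.13-fold, to 16.8 ± 0.303 CPM. LTBP2, which binds fibrillin but no latent TGF-β, rose 7.29-fold, to 12.9 ± 1.205 CPM, whereas LTBP1, which tethers latent TGF-β to microfibrils, fell from 182 ± 13.7 to 76.4 ± 6.49 CPM (2.38-fold, edgeR adjusted p = 2.44e-15). Elastin itself (ELN) had 16 control and 17 TGFB1 counts and was not tested.

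Among receptors of these glycoproteins, 14 of 19 listed genes were tested, and 9 rose, 3 fell and 2 were not past the test (median 0.53). Of all genes tested, 23.4% were called higher and 23.9% lower. The fibronectin receptor subunits ITGA5 and ITGB1 rose 3.29-fold and 1.67-fold, to 363 ± 16.7 and 955 ± 7.71 CPM, alongside their ligand FN1. ITGA3, a partner of ITGB1 in laminin and thrombospondin binding, rose 1.89-fold. SDC2, a heparan sulfate proteoglycan of the cell surface, fell 1.89-fold, from 85.7 ± 2.05 to 45.4 ± 2.64 CPM.

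Enzymes that process or crosslink these proteins rose in 10 of 15 tested, fell in 2 and were not past the test in 3 (median 0.34), out of 21 listed, of which 20 symbols were found. The share called was 80.0%, beside 47.3% of all genes tested. TGM2, the transglutaminase that crosslinks fibronectin, rose from 60.8 ± 0.701 to 316 ± 16.7 CPM, 5.20-fold (edgeR adjusted p = 5.24e-24). FURIN, the protease that trims fibrillins to their mature form, rose 3.78-fold, to 470.5 ± 24.1 CPM. LOX, the lysyl oxidase of collagen and elastin, rose 7.20-fold, and BMP1, a metalloprotease that trims matrix precursors, rose 1.79-fold. These lists were written with earlier results of the data known, so their counts describe the lists and test nothing.

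The genes most like TGFBI and FN1 were sought by Euclidean distance over the 6 log2 CPM values, each gene centred on its own mean. The log2 values carry a prior count of 2, which draws together genes with few or no control counts, so a near gene need not have a like fold. For TGFBI they were RTL1 (distance 0.33), SERPINE2 (0.41) and CGB8 (0.53). RTL1, a retrotransposon-derived gene, had 0 control counts and stood at 6.64 ± 0.511 CPM with TGF-β1, and CGB8, a chorionic gonadotropin β gene with near-identical copies and thus an uncertain level, stood at 0.0223 and 6.56 CPM. No fold is given for either, since their control level is at or under the floor of counting. RTL1 and CGB8 passed the filter on low counts through the TGFB1 libraries alone, so their directions are tied to the filter. SERPINE2, a serine protease inhibitor, stood at 7.20 ± 0.527 and 298 ± 9.40 CPM, a 41.4-fold rise. For FN1 they were ARID5A (0.20), ARHGAP22 (0.23) and FOXP1 (0.23), which rose 4.68-fold, 5.18-fold and 5.28-fold.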

How the data were processed

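The authors deposited 1 table of raw read counts per gene symbol for each of the 6 libraries. The submitters' processing notes name HTSeq, TopHat and TopHat2 2.0.11 as tools and GRCh37 and hg19 as builds. The annotation and the strand setting were not stated, so overlapping genes cannot be separated. Closing lines of the tables (no feature 5.44% to 5.98%, ambiguous 9.01% to 9.43%, more than 1 place 12.0% to 12.5%) stayed out of library sizes.

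Genes were filtered with edgeR 4.0.16 filterByExpr (minimum count 10, total 15), scaled by TMM (factors 0.975 to 1.02) and tested with robust glmQLFit and glmQLFTest, no block, with Benjamini-Hochberg adjustment over 14897 genes and a threshold of 0.05. R was 4.3.3. Values are mean CPM ± SD (n = 3), and errors of log2 fold changes are SE from the fold and its F statistic. A floor is 3 counts over a group; both floors and intervals reflect counting error alone, as no molecular identifiers are stated. Chi-square per degree of freedom between libraries of 1 group was 1.76 to 4.34, more than counting alone gives. This value cannot tell separate cultures from separate preparations of 1 culture. Each library was counted as its own sample. The script was tested on simulated data.

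The members and lists were chosen with earlier results of these data known. Named genes were the 9 members, the 4 tested genes of lowest p in each list and the 3 genes nearest to TGFBI and FN1; others named (markers, TGIF1, relatives of the members, ELN) were chosen after their values were seen. A planned POSTN to TGFBI ratio is not given, as POSTN had 1 count. Alternatives were DESeq2 1.42.0, limma-voom (limma 3.58.1), other scalings and filters, the replicate number as a block and each library left out. Promoters matched for all 9 members by symbol.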

Additional observations from a re-analysis of the deposited data

How the results depend on the processing

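Under 15 alternatives the 6 tested members gave 90 values, of which 88 kept their direction and their side of the threshold. The exceptions were THBS1 scaled by library size alone (0.12) and THBS1 after the length trend was removed (0.13), whose p-values stand in the report. Leaving out each library in turn gave log2 fold changes of 5.42 to 5.60 for TGFBI, 2.24 to 2.41 for FN1, 1.62 to 1.77 for TNC, 0.033 to 0.088 for THBS1, 0.33 to 0.46 for FBN1 and -0.93 to -0.74 for FBN2, and -1.26 to -1.19 for the FBN2 to FBN1 ratio. The THBS2 to THBS1 ratio, 0.30 on 16 THBS2 counts, ran from -0.046 to 0.89 and turned sign without control 3 (-0.017) and without TGFB1 2 (-0.046). Library size alone gave 4216 genes higher and 2879 lower against 3483 and 3561, and shifted the median of all genes to 0.057. Counts of calls stayed within 1.5 times in all 180 comparisons, lists included. Per kilobase of the median coding transcript the control levels were 52.8 for FBN1, 46.3 for THBS1, 28.0 for FBN2, 13.3 for TGFBI, 1.35 for FN1 and 1.16 for TNC. Correlations of deviations were 0.031, -0.11 and -0.048 between libraries of the same replicate number and -0.093 to 0.138 between those of other numbers. With 3 libraries a group, these values cannot decide whether the numbers pair the libraries. With the replicate number as a block FBN2 stood at -0.83, FBN1 at 0.39 and 3355 genes were higher and 3420 lower. Of other named genes, TGIF1 (-0.011; -0.061 to 0.054 with single libraries left out) turned sign with upper-quartile factors (0.013), library size alone (0.046) and without control 2 (0.054) or TGFB1 3 (0.0061), as did LTBP3 without control 1 (-0.0026, range to 0.068). At this depth THBS2, SPARC and POSTN can only be bounded.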

Other observations

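Several gene families around the fibrillins also held members that moved apart. These genes were picked after their values were seen, and differences between them were not tested. Among the latent TGF-β binding proteins, LTBP4 stood at 69.1 ± 1.72 CPM in control and 114 ± 11.4 CPM in TGFB1 libraries, a 1.65-fold rise (edgeR adjusted p = 1.13e-10), LTBP3 was not past the test (45.5 ± 2.28 and 46.7 ± 2.27 CPM, edgeR adjusted p = 0.679), and LTBP1 and LTBP2 are given above. Among fibulins, elastic fibre glycoproteins that bind fibronectin or tropoelastin, FBLN5 rose 1.48-fold while FBLN1 fell from 442 ± 15.1 to 342 ± 13.3 CPM. FBLN2 was not past the test (edgeR adjusted p = 0.0687) but passed under 4 of 15 alternatives.

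The αv integrins bind TGFBI, FN1, VTN and the RGD motif of latent TGF-β. ITGAV rose 1.58-fold and ITGB5 1.34-fold. ITGB3 stood at 0.763 ± 0.153 CPM in control and 5.94 ± 0.878 CPM in TGFB1 libraries, and ITGB8 at 2.87 ± 0.570 and 0.432 ± 0.094 CPM. ITGB3 and ITGB8 each passed the filter only through the group where it was higher, so their directions are tied to the filter. ITGB6 had 7 control and 32 TGFB1 counts and was left out by the filter. Of the CCN family, secreted matricellular regulators, CTGF, CYR61 and NOV rose 2.12-fold, 1.93-fold and 1.71-fold, and WISP2, at 259 ± 5.57 CPM in control libraries, fell 1.202-fold.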
